A study of Mus musculus with 26 samples.

Results

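The genes described here encode the protein folding, stress sensing and degradation machinery of the endoplasmic reticulum (ER). They were taken by name from a set of 36 symbols, and 32 of them have a row of their own among the 19549 gene rows of the count tables. Pdia6, Ppib, Syvn1 and Derl2 occur only in rows joined with an overlapping gene, whose reads cannot be divided, and were not analysed. By role, 9 of the 32 are chaperones and co-chaperones, 3 belong to the lectin folding cycle and 5 are disulfide-forming enzymes, which makes 17 folding genes. A further 5 are stress sensors or process them and 8 act in ER degradation, together 13 genes, and 2 belong to the translocon.

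Macrophages were sorted from 13 tumours that had grown from PyMT mammary cancer cells placed in the mammary gland of female FVB mice, 5 to 7 weeks old. The sort took CD11b+ F4/80+ Ly6G- cells and held them with cycloheximide, which keeps ribosomes on mRNA. About 10% of the cells of each tumour gave total mRNA, and the remainder gave polysome mRNA, the pool that carries 3 or more ribosomes, so each tumour has 2 libraries. The comparison of the 2 pools asks which mRNAs are more or less engaged in translation, and the comparison by tumour weight asks whether this changes as tumours grow. Small tumours weighed 467 to 841.8 mg (8 tumours) and large tumours 1504 to 2245 mg (5 tumours). Batch 1 holds 7 tumours (small replicates 1 to 5, large replicates 1 and 2) and batch 2 holds 6 (small replicates 6 to 8, large replicates 3 to 5). PyMT cells carry the polyoma middle T oncogene, all 13 tumours grew from them, and the labels give the hosts no further allele or treatment. Batch is the experimental batch of the labels, and each tumour is a separate animal sample.

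Secreted and membrane proteins enter the ER through the Sec61 channel and fold there with help from the chaperone Hspa5, its co-chaperones, the lectins Calr and Canx and the disulfide isomerases. When unfolded proteins accumulate, the sensors Ern1 and Atf6 switch on the unfolded protein response. Ern1 splices the mRNA of the transcription factor Xbp1, and Atf6 is cut by the proteases encoded by Mbtps1 and Mbtps2 to release a transcription factor. Both factors raise chaperone and degradation genes through ER stress response elements, and proteins that still do not fold are sent to the proteasome by ER degradation. Macrophages use this machinery for cytokines, proteases and surface receptors.

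The elements are shown first because they are the sequences through which Atf6 and Xbp1 are known to act on chaperone genes. RefSeq promoter windows (GRCm38.p6, 250 bases before to 50 bases after the start) were found for 29 of the 36 genes. The ER stress response element, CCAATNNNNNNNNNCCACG on either strand, was present in 9 of these 29 genes (31.0%) against 39 of 32851 windows of all genes (0.119%). The 29 are counted by gene and all genes by window, so the shares have unlike units. Because the element was already known from chaperone genes, its higher share in this set is not an independent result. The element was in 7 of 15 folding genes and in 2 of 13 sensor and degradation genes. The shorter form is ATTGG and CCACG with 1 base of any kind between them on either strand, and its CCACG is also the end of the first. It was in 2 of 29 genes (Dnajb11 and Herpud1) against 12 of 32851 windows (0.0365%). The element TGACGTGG was in 0 of 29 genes against 222 of 32851 windows (0.676%). For the 9 genes that also have counts, the matches are printed with 5 flanking bases on each side, with the element in capitals and reading along its own strand.
Hspa5: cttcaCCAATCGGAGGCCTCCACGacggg
Hsp90b1, farther from the start: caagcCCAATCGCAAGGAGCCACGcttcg
Hsp90b1, nearer the start: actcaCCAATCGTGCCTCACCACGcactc
Dnajc3: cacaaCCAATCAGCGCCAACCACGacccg
Creld2: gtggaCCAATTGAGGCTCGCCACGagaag
Calr: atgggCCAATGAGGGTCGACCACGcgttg
Canx: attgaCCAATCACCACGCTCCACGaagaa
Derl3: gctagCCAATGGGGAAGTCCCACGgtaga
Dnajb11, short form: cggcgATTGGCCCACGcctgg
Herpud1, short form: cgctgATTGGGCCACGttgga

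Hsp90b1 was the one analysed gene with 2 matches, at 212 to 194 and 107 to 89 bases before the RefSeq start and on opposite strands. Its upstream sequence, cut so that it ends before every annotated start (chr10:86705510-86705694, minus strand, 185 bases, matches in capitals), shows both in place.
Hsp90b1 upstream: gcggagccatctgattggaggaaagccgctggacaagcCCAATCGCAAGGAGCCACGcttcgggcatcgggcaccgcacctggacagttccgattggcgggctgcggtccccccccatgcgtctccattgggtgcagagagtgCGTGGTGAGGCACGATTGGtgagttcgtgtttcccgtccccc
In Hspa5 the match lay at chr2:34772025-34772043, 65 to 47 bases before the RefSeq start. The GENCODE gene begins farther upstream (chr2:34771970-34777547), so in that annotation the match is inside the gene. The match of Dnajb11 reached past its RefSeq start. A match is a string of letters in the window, not a measured site of binding.

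Total counts were 18018519 to 55609113 per total mRNA library and 7034173 to 28257436 per polysome library. The 32 genes took 0.818 to 1.09% of the counts of a total mRNA library and 0.364 to 0.680% of a polysome library, with no overlap. One other gene, Lars2, took 2.17 to 25.9% of polysome counts and 0.00304 to 0.902% of total mRNA counts, and its part in these shares was not tested. Levels below are in CPM, counts in proportion to library size, scaled between libraries by TMM, a method that sets scale from the bulk of the genes rather than from the total. The macrophage markers were present in all libraries, with all 12 genes detected and a summed level of 3776 to 75826 CPM. Small replicate 7 had the lowest sum in both pools and the highest sums of fibroblast (4793 CPM in total mRNA) and mammary epithelial markers (4038 CPM), against a median of 378 and 290 CPM in small tumours. B and plasma cell markers, of cells that are rich in these ER proteins, summed to 15.2 to 161 CPM over 13 genes, with the highest sum in total mRNA of small replicate 7. Within that list, Cd79b had 7.31 to 73.7 CPM in large and 13.8 to 87.1 CPM in small total libraries. Sdc1 had 8.57 to 45.4 and 6.20 to 102 CPM. The plasma cell gene Jchain, by contrast, was at 0 in all 5 large total libraries and reached 0 to 40.9 CPM in small ones (median 0). In bulk samples fewer cells of a type and less RNA per cell cannot be told apart.

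Most folding genes and most degradation genes were lower in polysomes, while the sensors Atf6 and Ern1 and the degradation gene Edem1 were higher. Of the 32 genes, 17 were lower and 6 higher in polysome than in total mRNA, where 34.0% of the 12109 genes tested were lower and 22.6% higher (edgeR quasi-likelihood test with the tumour as a block, adjusted p below 0.05). Among folding genes 11 of 17 were lower and 2 higher, with a median log2 fold of −1.36 against −0.34 for all genes tested. Of 13 sensor and degradation genes 6 were lower and 3 higher, which is near the background, with a median of −0.46. The 2 roles in that group differed, with a median of 0.44 for the 5 sensors and −0.93 for the 8 degradation genes. Derl3, which rests on few reads, is counted among the degradation genes; without it 4 of 7 were lower, with a median of −0.92. All folds are polysome against total on the log2 scale with SE, from 13 tumours. In 4 genes, Hspa5, Dnajb11, Dnajc3 and Os9, the highest polysome library was below the lowest total library (2.63% of all genes), and in Edem1 the reverse held (1.31% of all genes).

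**Figure D1:**
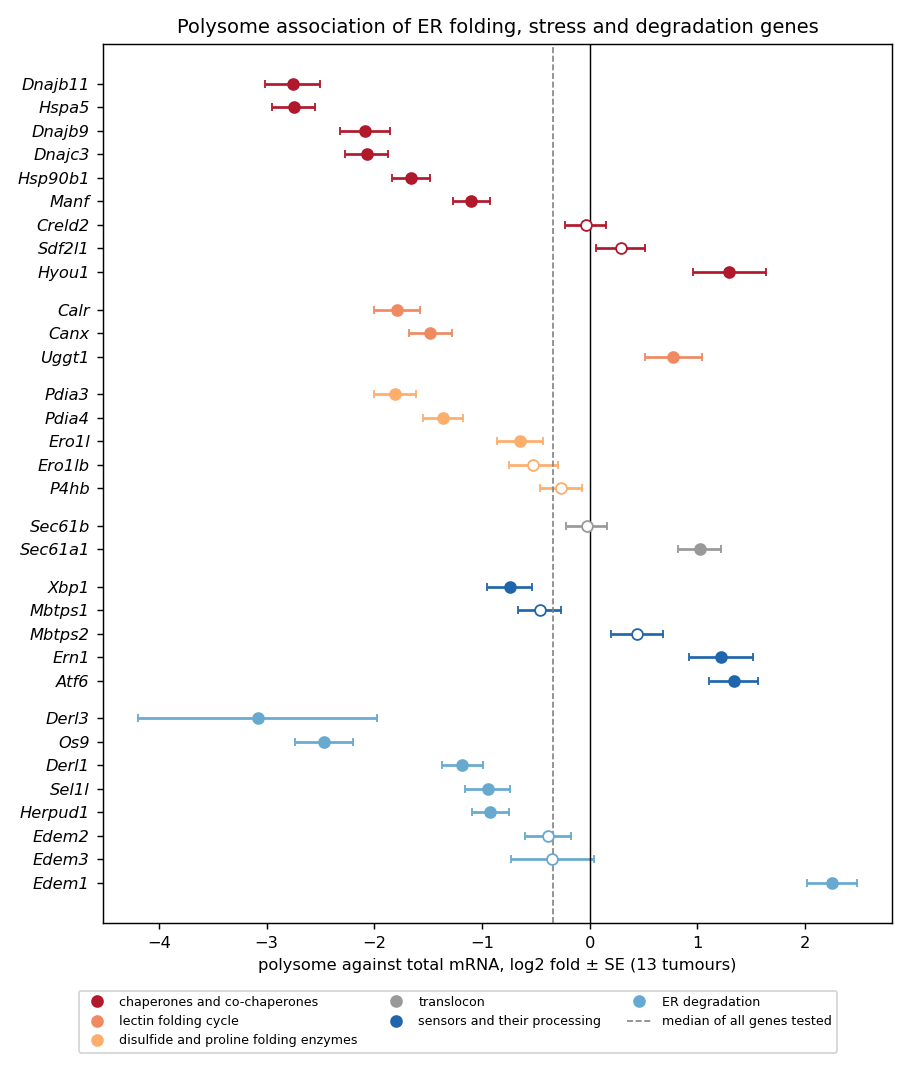
Log2 fold of polysome against total mRNA (x axis, ± SE, 13 tumours) for the 32 genes, sorted within 6 roles; filled points passed an adjusted p of 0.05 and open points did not, and the dashed line is the median of all genes tested at −0.34. Chaperones reach from −2.76 to 1.30, and Edem1 stands alone at 2.25; the fold of Derl3, with the widest bar, rests on few reads.

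Hspa5, the Hsp70 chaperone which also holds the sensors inactive, ranged from 708 to 1683 CPM in total mRNA (median 1103) and from 61.0 to 434 CPM in polysomes (median 169). Every tumour was lower in polysomes (fold −2.75 ± 0.20, edgeR adjusted p = 1.39e-10), and the difference per tumour ran from −4.18 in large replicate 3 to −1.76 in large replicate 2. Dnajb11, a J-domain co-chaperone that brings unfolded proteins to Hspa5, had 76.3 to 272 CPM in total mRNA (median 133) and 2.08 to 60.3 CPM in polysomes (median 23.8). Its fold was −2.76 ± 0.26 (edgeR adjusted p = 3.74e-09), in 13 of 13 tumours. Dnajc3, another J-domain partner of Hspa5, had 84.9 to 214 CPM in total mRNA (median 128) and 13.5 to 58.9 CPM in polysomes (median 25.8). Its fold was −2.07 ± 0.20 (edgeR adjusted p = 7.63e-09), also in 13 of 13 tumours.

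Hsp90b1, the Hsp90 chaperone of the ER that folds integrins and Toll-like receptors, had 452 to 1030 CPM in total mRNA (median 647) and 107 to 470 CPM in polysomes (median 250). Its fold was −1.66 ± 0.18 (edgeR adjusted p = 2.57e-08), and all 13 tumours were lower although the ranges touch. Dnajb9, a J-domain co-chaperone that represses Ern1, was lower by −2.09 ± 0.23 and Manf, a stress-induced partner of Hspa5, by −1.10 ± 0.17. Both of these folds average over unlike batches. Hyou1, the nucleotide exchange factor of Hspa5, went the other way at 1.30 ± 0.34, from a mean of 18.3 ± 10.3 CPM in total mRNA to 46.1 ± 27.5 CPM on polysomes (SD, n = 13). It was higher in 10 of 13 tumours, and without small replicates 6 and 7 and large replicate 3 its fold was 0.65 (edgeR adjusted p = 0.0452). Those are the tumours with the lowest Lars2 share in total mRNA. Sdf2l1, which works with Dnajb11 on Hspa5 clients, and Creld2, a stress-induced ER protein, did not pass, at 0.29 ± 0.23 and −0.038 ± 0.19. Sdf2l1 passed without large replicate 4 (0.54, edgeR adjusted p = 0.0353).

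The 2 lectins and their partner enzyme were lower and the sensor of glycoprotein folding was not. Calr, the soluble lectin, had 473 to 1863 CPM in total mRNA (median 1303) and 99.9 to 624 CPM in polysomes (median 437), a fold of −1.79 ± 0.22 (edgeR adjusted p = 1.78e-07). All 13 tumours were lower, by −3.77 in small replicate 3 but only −0.09 in small replicate 6. Canx, its membrane-bound relative, had 181 to 582 CPM (median 470) and 71.7 to 518 CPM (median 173), a fold of −1.48 ± 0.20 (edgeR adjusted p = 9.29e-07), lower in 11 of 13 tumours. Pdia3, the isomerase that Calr and Canx recruit, had 395 to 1158 CPM in total mRNA (median 848) and 85.8 to 808 CPM in polysomes (median 279), a fold of −1.81 ± 0.19 (edgeR adjusted p = 3.09e-08). Uggt1 puts a glucose back on misfolded glycoproteins so that the lectins bind them again. It had 10.6 to 171 CPM in total mRNA (median 89.7) and 26.3 to 350 CPM in polysomes (median 177), a fold of 0.78 ± 0.27 (edgeR adjusted p = 0.0153), higher in 11 of 13 tumours. It no longer passed when large replicate 2 (0.61, edgeR adjusted p = 0.0733), large replicate 3 (0.57, 0.0697) or the 3 low-Lars2 tumours together (0.31, 0.266) were left out, nor in batch 2 alone (1.04, 0.0878).

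**Figure D2:**
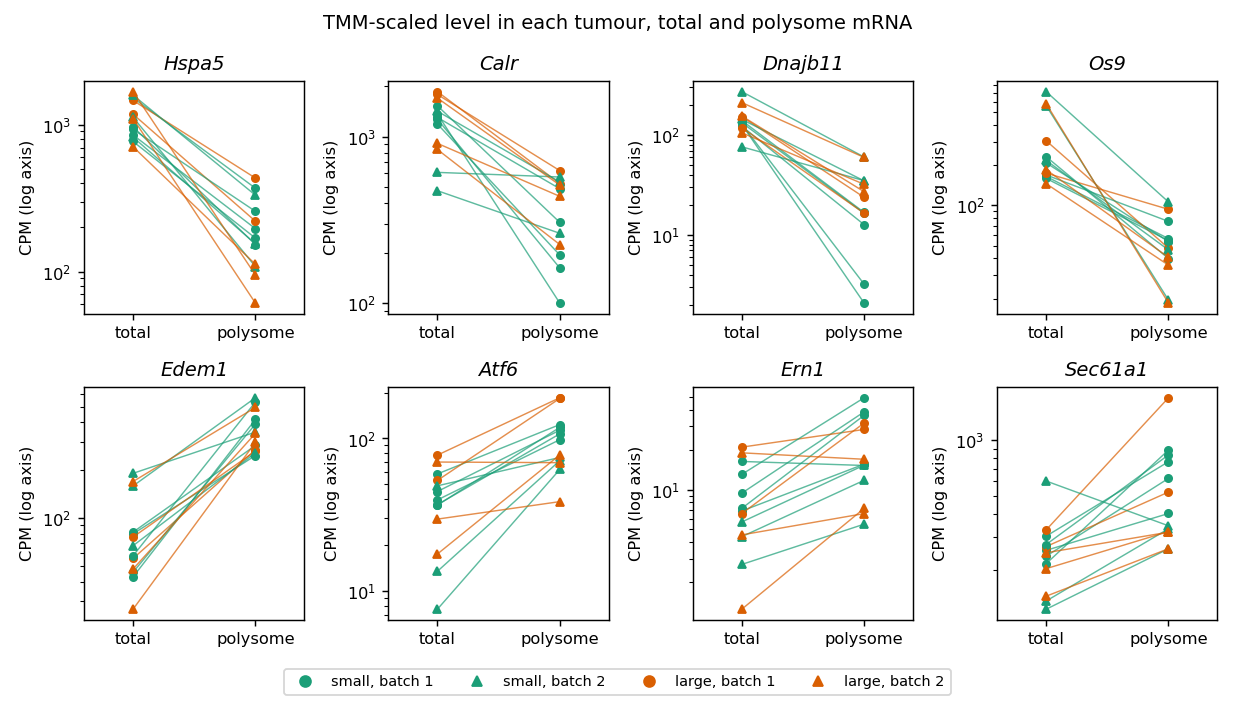
TMM-scaled CPM (log axis, scaled per panel) of 8 genes in total and polysome mRNA, with a line for each of the 13 tumours, colour for size class and symbol for batch. The ranges of Hspa5, Dnajb11 and Os9 do not overlap between the pools, and Edem1 rises in every tumour.

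Disulfide enzymes differed among themselves. Pdia4, an isomerase of the Hspa5 complex, had 112 to 376 CPM in total mRNA (median 268) and 55.1 to 228 CPM in polysomes (median 101), a fold of −1.36 ± 0.19 (edgeR adjusted p = 1.1e-06) with 13 of 13 tumours lower. P4hb, the classical protein disulfide isomerase, had the highest mean level per kb of exon of the 32 genes in both pools, 596 ± 305 in total mRNA and 489 ± 210 CPM per kb in polysomes (SD, n = 13). By median Calr was higher in total mRNA, at 597 CPM per kb against 457 for P4hb. The libraries of P4hb ranged from 815 to 3410 CPM (median 1307) and from 845 to 2795 CPM (median 1130). Its fold of −0.26 ± 0.20 did not pass (edgeR adjusted p = 0.256). P4hb was lower in 8 tumours and higher in 5. Ero1l, the oxidase that recharges the isomerases, had 16.6 to 116 CPM in total mRNA (median 38.5) and 12.6 to 85.9 CPM in polysomes (median 34.2), a fold of −0.65 ± 0.22 (edgeR adjusted p = 0.0124). Ero1l no longer passed with large replicate 5 left out (−0.49, edgeR adjusted p = 0.0696) with no tumour block (−0.60, 0.0758) or with equal weight for tumours (−0.55, 0.0592). Its paralog Ero1lb had −0.52 ± 0.23 and did not pass (edgeR adjusted p = 0.0541), but passed narrowly with small replicate 1 (−0.55, 0.0496) or large replicate 3 (−0.60, 0.0391) left out.

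The 2 channel subunits also parted. Sec61a1, which forms the pore, had 122 to 602 CPM in total mRNA (median 247) and 259 to 1699 CPM in polysomes (median 402), a fold of 1.02 ± 0.20 (edgeR adjusted p = 8.99e-05). It was higher in 12 of 13 tumours, all but small replicate 8. Sec61b, a small accessory subunit, had 57.9 to 144 CPM (median 108) and 36.3 to 226 CPM (median 91.7), with a fold of −0.027 ± 0.19 (edgeR adjusted p = 0.915) that averages over opposite batches.

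Both sensors were higher in polysomes and the target of Ern1 was lower. Exon lengths were 8157 bases for Ern1, 7246 for Atf6, 2389 for Xbp1, 7950 for Mbtps2 and 4344 for Mbtps1. The part of length in these single folds was not tested. Atf6 had 7.58 to 77.8 CPM in total mRNA (median 39.5) and 38.5 to 185 CPM in polysomes (median 98.2), a fold of 1.34 ± 0.23 (edgeR adjusted p = 2.49e-05), higher in 12 of 13 tumours. Ern1 had 1.25 to 20.9 CPM (median 6.90) and 5.48 to 49.3 CPM (median 15.6), a fold of 1.22 ± 0.30 (edgeR adjusted p = 0.00124), higher in 11 of 13 tumours. Xbp1, here the sum of spliced and unspliced mRNA, had 208 to 568 CPM in total mRNA (median 318) and 71.8 to 310 CPM in polysomes (median 221), a fold of −0.74 ± 0.21 (edgeR adjusted p = 0.00407). It was lower in 11 of 13 tumours, from −2.72 in small replicate 7 to 0.30 in large replicate 5, and the call was lost without the 3 low-Lars2 tumours (−0.35, edgeR adjusted p = 0.153). Small replicate 7 is also the tumour with high fibroblast and epithelial markers, whose part in the Xbp1 value was not tested. The proteases Mbtps1 (−0.46 ± 0.20) and Mbtps2 (0.44 ± 0.24), which cut Atf6, did not pass (edgeR adjusted p = 0.0531 and 0.129). Mbtps1 passed with small replicate 3 (−0.50), 6 (−0.53) or 8 (−0.49) or large replicate 2 (−0.58) left out, at edgeR adjusted p from 0.0275 to 0.0494.

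Degradation genes were lower apart from the EDEM family. Edem1, which trims mannose from misfolded glycoproteins and hands them on, had 26.8 to 191 CPM in total mRNA (median 67.1) and 247 to 569 CPM in polysomes (median 340). Every tumour was higher (fold 2.25 ± 0.23, edgeR adjusted p = 1.48e-08), from 0.86 in small replicate 6 to 3.47 in large replicate 3. Its relatives Edem2 (−0.39 ± 0.22) and Edem3 (−0.35 ± 0.39) did not pass, and Edem3 ran from −2.25 in large replicate 5 to 4.66 in small replicate 6. Os9, the lectin that reads the trimmed glycan, had 146 to 714 CPM in total mRNA (median 209) and 18.5 to 106 CPM in polysomes (median 47.8), a fold of −2.46 ± 0.27 (edgeR adjusted p = 4.2e-08) with 13 of 13 tumours lower. Edem1 and Os9, which act in succession on the same glycan, had the highest and, Derl3 aside, the lowest fold of the degradation genes.

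Derl1, a membrane protein of the retrotranslocation channel, had 137 to 325 CPM in total mRNA (median 209) and 41.2 to 164 CPM in polysomes (median 91.2), a fold of −1.18 ± 0.19 (edgeR adjusted p = 8.26e-06). It was lower in 13 of 13 tumours. Herpud1, which assembles the degradation complex, had 101 to 316 CPM (median 180) and 45.5 to 233 CPM (median 89.0), a fold of −0.92 ± 0.17 (edgeR adjusted p = 6.56e-05), lower in 12 of 13 tumours. Sel1l, the adaptor of the ubiquitin ligase, was lower by −0.95 ± 0.21. Derl3 was near the floor, at 0 to 37 reads per total library and 0 to 9 per polysome library, with 8 of 13 polysome libraries at 0. It was called by edgeR (adjusted p = 0.0203), but no longer without large replicate 1 (0.0597), 2 (0.0598) or 3 (0.0551), the 3 low-Lars2 tumours (0.120) or the filter on low counts (0.0688). Its fitted fold of −3.08 ± 1.11 is imprecise at this depth.

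Set against their promoters, 8 of the 9 genes with an element printed above were lower in polysomes and 0 were higher, with a median log2 fold of −1.79, Derl3 included, against 34.0% and 22.6% of all genes tested. Creld2 was the one not called. Of the 16 genes whose window held no match, 6 were lower and 3 higher, near the share over all genes, with a median of −0.37. Hyou1, Manf, Ero1l, Ero1lb, Sec61a1, Atf6 and Derl1 had no window and are in neither count. Among them Hyou1, Sec61a1 and Atf6 were higher and Manf, Ero1l and Derl1 lower. Folding genes, which were mostly lower, made up 7 of the 9 and 6 of the 16; of these, 6 of 7 and 3 of 6 were lower. These are counts over genes chosen by name, with no test.

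In each tumour the median difference over the 17 folding genes was below 0, from −1.90 in large replicate 3 to −0.33 in small replicate 3. Over the 13 sensor and degradation genes it ran from −0.71 to 0.31 and was below 0 in 12 of 13 tumours, and over all genes tested from −0.43 to 0. The folding median was the lower of the 2 in 12 of 13 tumours, by a mean of −0.73 ± 0.50 (SD, n = 13). The exception was small replicate 3, where it was 0.30 higher. The 5 large tumours had folding medians of −1.53, −1.52, −1.90, −1.63 and −1.32, and the 8 small tumours had −1.40 to −0.33, so the classes overlap narrowly.

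**Figure D3:**
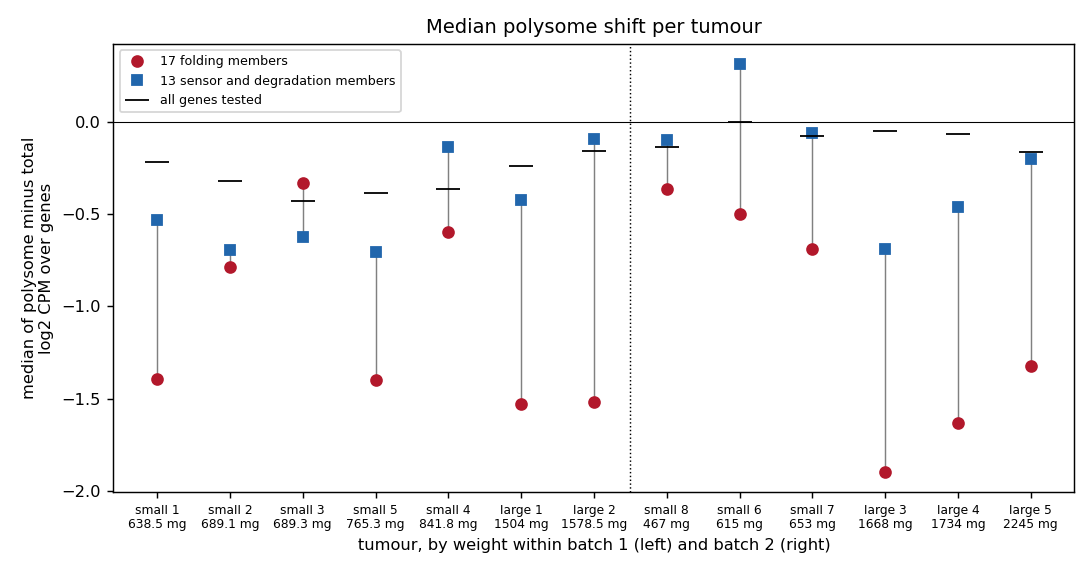
Median of polysome minus total log2 CPM (y axis) over the 17 folding genes (circles), the 13 sensor and degradation genes (squares) and all genes tested (bars) in each tumour, ordered by weight within batch. Circles lie below squares in 12 of 13 tumours, all but small replicate 3.

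The batches gave different folds for some of these genes. The difference of batch 2 minus batch 1 passed in 5 of 32 genes, near the share over all genes tested (17.4%), so the count does not set these genes apart. Dnajb9 differed by 2.40 ± 0.45 (edgeR adjusted p = 0.000652), with 63.1 ± 18.6 CPM in total and 7.30 ± 3.02 CPM in polysome mRNA of batch 1 (SD, n = 7), against 38.9 ± 17.3 and 20.2 ± 4.73 CPM in batch 2 (n = 6). Its polysome libraries did not overlap between batches, a feature that was not counted over all genes. Manf differed by 1.85 ± 0.34 (edgeR adjusted p = 0.000502), and its fold was −2.00 in batch 1 and −0.15 in batch 2 (edgeR adjusted p = 0.697 in batch 2 alone). Dnajb11 differed by 1.64 ± 0.49 (edgeR adjusted p = 0.0201), lower in both batches at −3.37 and −1.91. Sec61b differed by 1.46 ± 0.39 (edgeR adjusted p = 0.0102), with −0.80 in batch 1, where all 7 tumours were lower, and 0.72 in batch 2, where 5 of 6 were higher. Pdia3 differed the other way by −1.20 ± 0.38 (edgeR adjusted p = 0.0282), at −1.12 in batch 1 and −2.39 in batch 2. The Pdia3 difference did not pass without large replicate 1 or 3 or small replicate 3, 4 or 7 (−1.15 to −1.02), nor that of Dnajb11 without small replicate 8 (1.37). Without the 3 low-Lars2 tumours the differences of Pdia3 (−0.87), Dnajb11 and Sec61b (1.19) did not pass. The count was 9 without large replicate 4 and 11 without large replicate 5, with the share over all genes in those fits not given here.

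Of 31 genes tested in both batches alone, 24 had folds of the same sign, a share that was not counted over all genes. The others were Sdf2l1, Creld2, P4hb, Sec61b, Mbtps1, Edem2 and Edem3, none of which passed over both batches. Batch 1 alone had 16 of 32 genes lower and 6 higher, where 27.9% of all genes tested were lower and 21.3% higher. Batch 2 alone had 15 of 31 lower and 2 higher, where 15.9% of all genes were lower and 14.0% higher. The folding median was −1.12 in batch 1 alone and −0.87 in batch 2 alone, that of sensor and degradation genes −0.48 and −0.37, and that of all genes tested −0.46 and −0.16. The fitted folds of Edem1 (2.34 and 2.07) and Atf6 (1.48 and 1.42) were nearly equal in both. For Atf6 the tumours of batch 2 were unlike, while the differences per tumour in batch 1 ran from 1.08 to 1.79. In batch 2 Atf6 had 2.41, 3.04 and 2.16 in the 3 low-Lars2 tumours and 0.62, 0.38 and −0.01 in the others. Of the genes called over both batches, Ern1 (1.09), Sec61a1 (0.58), Ero1l (−0.46), Hyou1 (1.40), Uggt1 (1.04) and Manf (−0.15) did not pass in batch 2 alone, nor did Xbp1 (−0.46), Herpud1 (−0.48) and Derl3 in batch 1 alone. Sec61b (−0.80) and Mbtps1 (−0.84) passed in batch 1 alone and Edem2 (−0.96) in batch 2 alone.

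**Figure D4:**
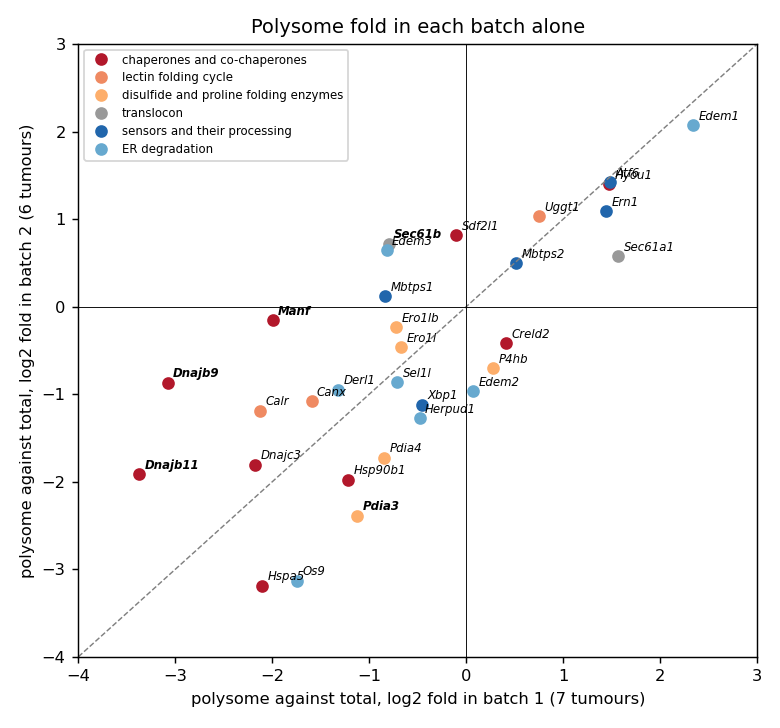
Log2 fold of polysome against total mRNA fitted in batch 1 alone (x axis, 7 tumours) and batch 2 alone (y axis, 6 tumours) for 31 genes coloured by role; bold names are the 5 genes whose batch difference passed, and Derl3 was not tested in batch 2. Dnajb9, Dnajb11 and Manf lie above the dashed line of equality and Pdia3 below it, while Sec61b lies in the quadrant of opposite signs.

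None of these genes differed with tumour size at the threshold. In total mRNA edgeR called 0 of 32 (0.0% of 11671 genes; 2 of the 32 genes and 4.61% of all genes at an unadjusted p below 0.05), and DESeq2 called 0 genes in all. In polysome mRNA it called 0 of 31 (0.0% of 10933; 9 genes and 12.5% unadjusted), and DESeq2 called 0 of these genes and 147 in all. For polysome association, the change of the polysome fold with size, edgeR called 0 of 32 (0.0% of 12109; 10 genes and 11.4% unadjusted). DESeq2 called 2 of the 32 there, Canx and Ero1lb (adjusted p = 0.0294 each), and 1.69% of the 7648 genes it adjusted, while voom called 0 genes in each of the 3 comparisons. The genes with the lowest p in each comparison follow as values. Folds are large against small on the log2 scale with batch as a covariate.

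Canx had a fold of −0.94 ± 0.32 in polysomes (edgeR adjusted p = 0.248) and of −1.47 ± 0.40 in polysome association (edgeR adjusted p = 0.300). Large tumours had 132, 173, 71.7, 116 and 120 CPM in polysomes, and small tumours 148 to 518 CPM (median 213). In total mRNA large tumours had 529.5, 582, 512, 571 and 355 CPM and small tumours 181 to 555 CPM (median 431). The classes overlapped in both pools, in polysomes through large replicate 2 alone. Canx association was −0.51 in batch 1 and −2.39 in batch 2 fitted alone, with the same sign.

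Ero1lb had 0.69 ± 0.32 in total mRNA (edgeR adjusted p = 0.865) and −1.51 ± 0.47 in association (edgeR adjusted p = 0.307). Its polysome levels were 14.3, 9.33, 12.7, 8.79 and 14.4 CPM in large tumours and 11.6 to 36.2 CPM (median 19.6) in small tumours. Uggt1 had 1.09 ± 0.46 in total mRNA and −1.45 ± 0.54 in association (edgeR adjusted p = 0.865 and 0.331), and Edem3 had 1.27 ± 0.66 and −2.22 ± 0.79 (0.865 and 0.328). Both vary widely in total mRNA, with 12.8 CPM of Uggt1 in large replicate 3 against 87.1 to 171 CPM in the other large tumours. Sel1l had 0.40 ± 0.22 in total mRNA (edgeR adjusted p = 0.865), at 133, 141, 83.8, 117 and 84.3 CPM in large tumours and 46.4 to 143 CPM (median 96.1) in small tumours.

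Hsp90b1 had −0.71 ± 0.28 in polysomes (edgeR adjusted p = 0.315), at 250, 189, 107, 204 and 174 CPM in large tumours and 216 to 470 CPM (median 292) in small tumours. Only large replicate 1 reached the range of the small tumours. Xbp1 and Herpud1 had folds above 0, 1.00 ± 0.34 and 0.87 ± 0.30 in polysomes (edgeR adjusted p = 0.255 and 0.254). Xbp1 had 221, 294, 289, 310 and 283 CPM in polysomes of large tumours and 71.8 to 280 CPM (median 139) in those of small tumours, with 1 large library inside the small range. In total mRNA its levels were 230.5 to 467 and 208 to 568 CPM. Herpud1 had 116, 233, 103, 134 and 73.8 CPM in polysomes of large tumours and 45.5 to 114 CPM (median 74.6) in those of small tumours.

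**Figure D5:**
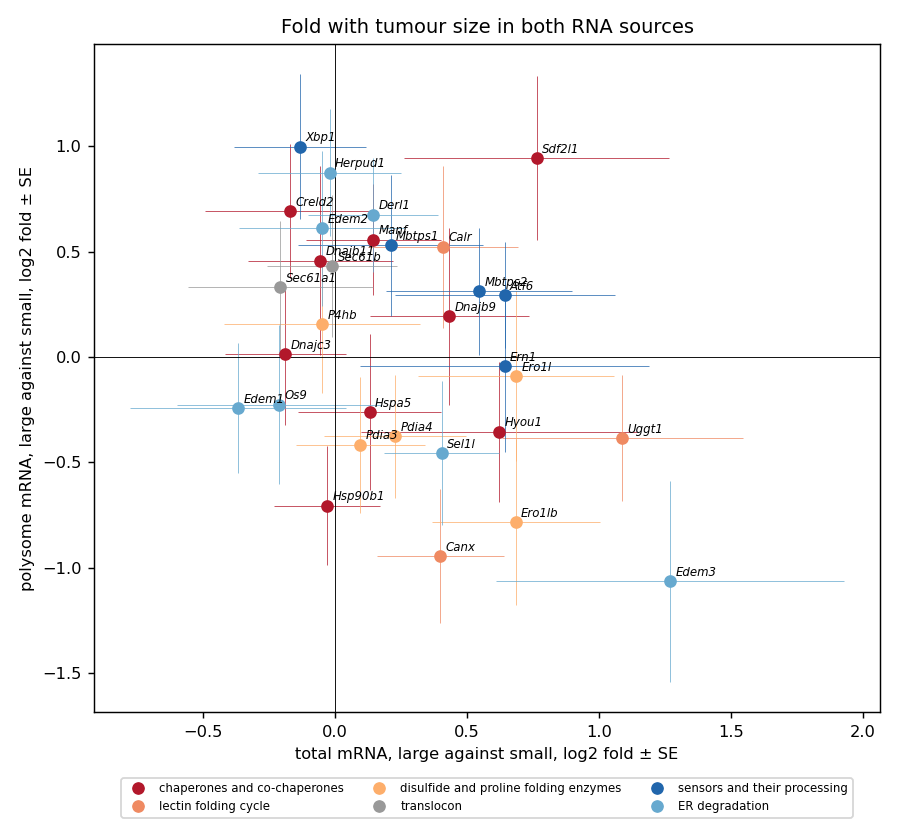
Log2 fold of large against small tumours in total mRNA (x axis) and polysome mRNA (y axis) with SE for 31 genes coloured by role; Derl3 was not tested in polysomes. No gene passed in either pool; Canx, Ero1lb, Uggt1 and Edem3 lie right of 0 and below it, and Xbp1 and Herpud1 lie above 0 near no change in total mRNA.

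No gene of the set had size classes that did not overlap, in total mRNA (0.0% of all genes higher and 0.00857% lower) or in polysomes (0.457% higher and 0.137% lower). In batches fitted alone, the sign of the size fold was the same in 17 of 32 genes in total mRNA, 19 of 31 in polysomes and 18 of 31 in association. Agreement of sign was not counted over all genes. The folding median of association was −0.47, against 0.066 for sensor and degradation genes and −0.063 for all genes. In batch 1 alone, with 2 large tumours, the folding median was 0.079, and in batch 2 alone it was −0.98.

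Other genes of the same pathways, listed by function, were lower in polysomes in 51 of 112 tested and higher in 21, with a median log2 fold of −0.44 (all genes tested: 34.0% lower, 22.6% higher, median −0.34). Of 22 further folding enzymes and co-chaperones, 12 were lower and 2 higher, with the retention receptor Erp44 at −2.45 ± 0.19 (99.3 ± 24.2 to 18.8 ± 6.41 CPM, SD, n = 13) and the membrane oxidoreductase Tmx1 at −1.81 ± 0.21. Genes of translocation, signal peptidase and oligosaccharyl transferase were lower in 15 of 29 and higher in 3. Examples were Srp54a of the signal recognition particle (−2.83 ± 0.23) and Ssr1 of the translocon-associated complex (−1.71 ± 0.17). The PERK arm and other stress transducers were lower in 3 of 12 and higher in 3, near the share over all genes, with the ER membrane protein Tmbim6 at −1.70 ± 0.17 and the transcription factor Creb3l2 at 1.42 ± 0.27, higher in 13 of 13 tumours. Of 27 other ER degradation genes 9 were lower and 7 higher, also near that share, with the lectin Erlec1, a relative of Os9, at −2.87 ± 0.30 and Ubxn4 at −1.89 ± 0.18. Genes of glycan trimming and ER exit were lower in 12 of 22 and higher in 6, with Sar1b, the GTPase of vesicle budding, at −2.55 ± 0.28 and the cargo receptor subunit Ergic1 at 1.62 ± 0.21. In the translocation list 11 of 29 genes were higher and 3 lower in the batch difference (10.5% and 6.95% of all genes tested), so the folds of these 14 average over unlike batches.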

How the data were processed

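Polysome and total mRNA of sorted macrophages from 13 mouse mammary tumours were sequenced with SmartSeq2, which does not mark the strand, per the labels' protocols. The submitters' processing notes name HISAT, HISAT2, limma and mm10, with no role or version; which counting tool, annotation and strand setting were used is not given in the sources used here, so reads of overlapping or antisense genes cannot be told apart. The authors deposited whole-number read counts for 19549 gene rows per library, 830 of them joined rows. The authors also deposited log2 values, which equal log2 of count plus 0.5 minus a constant per library (largest deviation 5.2e-14, 10472 genes with a value in all libraries). Only counts were tested.

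Counts were filtered with filterByExpr, scaled with TMM and fitted with edgeR 4.0.16 in R 4.3.3 (robust quasi-likelihood F-test, Benjamini-Hochberg over all genes tested, threshold 0.05). Polysome against total, its batch difference and its size difference came from 1 fit of 26 libraries with the tumour as a block. Both pools of a tumour come from 1 sorted population, per the labels, which gives the pairing; deviations from group means correlated at a median of 0.249 for the 2 libraries of a tumour (0.0373 at the lowest) and −0.0166 for those of different tumours. Size (limit 1000 mg) was fitted within each pool with batch. SE is the fold divided by the root of F. Differences per tumour took log2 CPM (prior count 1). The p-values measure the spread between tumours. Levels per kb used GENCODE M21 exon lengths, and promoters came from RefSeq. Alternatives were RLE and upper-quartile scaling, no filter on low counts, a minimum mean of 10 CPM, DESeq2 1.42.0, voom of limma 3.58.1, no replicate block, log2 weight, equal weight for tumours, each batch alone, and leaving out each tumour or the 3 with the lowest Lars2 share. Fits were tested on simulated data. Genes given in full were the 3 with the lowest p in each role plus 11 set by name, and in size and batch comparisons those called or else the 4 with the lowest p. The genes, lists and tests were chosen with earlier results of these data known. Retention tails and protein lengths were not analysed here.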

Additional observations from a re-analysis of the deposited data

Results flagged for a closer look

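Among 128 pairs of gene and group, 12 held a library far from the others of its group; chance alone gives about 1 in 20. Large replicate 3 was low in total mRNA for 5 genes: Hyou1 (3.30 CPM, others 19.3 to 33.5), Uggt1 (12.8, others 87.1 to 171), Mbtps1 (25.1, others 72.4 to 77.9), Mbtps2 (8.09, others 22.1 to 25.7) and Edem3 (1.53, others 14.0 to 23.6). Large replicate 5 was low in total mRNA for Canx (355 CPM, others 512 to 582), Pdia4 (185 CPM, others 307 to 355) and Derl3 (0.148 CPM, others 0.658 to 1.05). Sdf2l1 was low in total mRNA of small replicate 7 (12.9 CPM, others 66.8 to 149). In polysomes, Canx was high in small replicate 6 (518 CPM, others 148 to 247), Xbp1 low in large replicate 1 (221 CPM, others 283 to 310) and Derl3 at 0.309 CPM in large replicate 4 with the others at 0.

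The polysome fold differed between batches, by a test of the difference, in Dnajb9 (2.40), Dnajb11 (1.64), Manf (1.85), Pdia3 (−1.20) and Sec61b (1.46), as batch 2 minus batch 1 on the log2 scale.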

How the results depend on the processing

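The count of genes lower in polysomes stayed within 15 to 19 under every alternative run. The medians of folding and of sensor and degradation genes stayed below 0 in each. That of all genes tested was also below 0 in the main fit (−0.34) and in batch 1 (−0.46) and batch 2 alone (−0.16). The sign by itself thus does not set these genes apart. In batch 1 alone the sensor and degradation median of −0.48 was close to that of all genes. In a further alternative, chosen after seeing the data, a trend on coding length was removed (91.5% of genes with a length). The medians were then −0.96 for folding genes, −0.27 for sensor and degradation genes and −0.013 for all genes with a length. The count of higher genes was 2 in batch 2 alone and 5 to 7 when a tumour was left out. The batch difference was called in 5 genes in the main fit, where it was called in 17.4% of all genes tested. It was called in 8 genes with no filter, at a mean of at least 10 CPM and with voom, and in 15 with DESeq2. The count was 3 without the 3 low-Lars2 tumours. With a tumour left out it ran from 4 (without small replicate 3, 4 or 7) to 11 (without large replicate 5). It was 9 without large replicate 4. Shares over all genes in these alternatives are not given here, so the counts cannot be set against them. DESeq2 called 2 genes in polysome association. Without the replicate block the count of lower genes was 15, the calls of Ero1l, Derl3 and, in the batch difference, Dnajb11 (1.37, edgeR adjusted p = 0.0924) were lost, and no other call of a gene given in full changed. Signs that turned were those of Sec61b, with RLE (0.046), upper-quartile scaling (0.016), no filter (0.0094), DESeq2 (0.046), no replicate block (0.0092), batch 2 alone (0.72) and 4 of the fits with a tumour left out (up to 0.073; the 13 such fits ran from −0.089), of P4hb in batch 1 alone (0.28) and of the size fold of Edem3 in total mRNA of batch 1 alone (−0.039). The cause was not tested. Genes below about 1 CPM, here Derl3, are limited by depth.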

Other observations

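Levels can be compared between genes only per length, here as CPM per kb of exon (mean ± SD, n = 13 libraries of each pool). In total mRNA the order was P4hb (596 ± 305), Calr (573 ± 201), Pdia3 (312 ± 75.1), Hspa5 (302 ± 88.9), Hsp90b1 (256 ± 69.6) and Sec61b (182 ± 47.0), where P4hb and Calr lay within each other's spread, as did Pdia3, Hspa5 and Hsp90b1. In polysomes P4hb came first (489 ± 210), followed by Sec61b (190 ± 106), Sec61a1 (184 ± 127), Calr (174 ± 81.0), Pdia3 (117 ± 77.0) and Sdf2l1 (112 ± 56.9), where Sec61b, Sec61a1 and Calr lay within each other's spread, as did Pdia3 and Sdf2l1. Hspa5, the fourth in total mRNA, had 54.5 ± 30.4 in polysomes, close to Edem1 at 62.3, which had 14.6 ± 9.15 in total mRNA.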
